A study of Mus musculus with 2 samples.

Results

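CpG methylation was examined at the 6 Dlx homeobox genes of the mouse, Dlx1 to Dlx6, which lie in the genome as 3 linked pairs. The members are every measured CpG within the 6 gene bodies and 5 kb to either side on the mm9 (NCBIM37) build, 692 CpGs of 1790826 in the whole table. Reduced-representation bisulfite sequencing (RRBS), which cuts DNA with restriction enzymes and reads unmethylated cytosines as thymine after bisulfite treatment, was applied to 2 lines of mouse embryonic fibroblasts (MEFs), with 1 library per line. The Dnmt1-/- MEFs carry on both chromosomes a hypomorphic Dnmt1 allele, written Dnmt1 n/n, and are also null for trp53. The product of Dnmt1 is the main enzyme that copies methylation to newly made DNA. The Dnmt1+/+ MEFs carry wild-type Dnmt1 and are trp53-/- as well, so the absence of p53 is common to both. The labels give the strain by reference only and not the part of the embryo from which each line came, and differences between the lines other than the Dnmt1 allele cannot be told apart from it. No expression was measured in this table, so the fibroblast label was not checked against markers.

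Dlx genes encode transcription factors related to Drosophila Distal-less, and the members of a pair are transcribed towards each other from opposite strands. Dlx1, Dlx2, Dlx5 and Dlx6 act in the forebrain, where they direct the formation of GABAergic interneurons, and all 3 pairs are used in the pharyngeal arches, in nested domains that pattern the jaw. Dlx5 and Dlx6 also act in limb and bone, while Dlx3 is known for its roles in placenta, skin, hair and teeth. CpG-rich starts of such developmental regulators are usually free of methylation in somatic cells, and many are bound by Polycomb complexes in cells that do not use them.

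Dlx1 (ENSMUSG00000041911) spans chr2:71366170-71372038 on the plus strand and Dlx2 (ENSMUSG00000023391) chr2:71381466-71384811 on the minus strand. Dlx3 (ENSMUSG00000001510) spans chr11:94981403-94986610 on the plus strand and Dlx4 (ENSMUSG00000020871) chr11:95001770-95007577 on the minus strand. Dlx5 (ENSMUSG00000029755) spans chr6:6827805-6832085 on the minus strand and Dlx6 (ENSMUSG00000029754) chr6:6813334-6818568 on the plus strand. The genes of a pair are separated by 9427 bp, 15159 bp and 9236 bp, respectively. The table held 135 CpGs for Dlx1, 198 for Dlx2, 116 for Dlx3, 114 for Dlx4, 49 for Dlx5 and 93 for Dlx6, of which 13 fell in the windows of both Dlx1 and Dlx2. These are 31.3%, 41.7%, 31.3%, 31.8%, 13.5% and 27.5% of the CG dinucleotides in each window, in the same order, so Dlx5 was the least covered.

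CpGs inside CCGG or TCGA, the recognition sequences of the restriction enzymes MspI and TaqI, read far higher than their neighbours. The enzymes used for these libraries are not given in the sources used here. Within 1 kb of the 6 gene starts, 68 such CpGs averaged 53.2% in Dnmt1+/+ MEFs and 50.6% in Dnmt1-/- MEFs, whereas 221 CpGs in other sequence averaged 5.21% and 3.09%. Levels below are therefore those of the other CpGs, 492 in the Dlx windows of 996064 in the whole table, unless all CpGs are named. Each of these 492 CpGs had 11 to 182 calls in Dnmt1+/+ MEFs (median 50) and 10 to 210 in Dnmt1-/- MEFs (median 40). Medians over all other CpGs of the table were 33 calls in both libraries. Intervals in brackets are 95% intervals for counting error. Neighbouring CpGs share reads and amplified reads are not independent molecules, so the intervals are too narrow, and they do not include the spread between cultures, which 1 library per line cannot give. Single CpGs were compared with Fisher's exact test, two-sided, with Benjamini-Hochberg adjustment over all CpGs of the table and a threshold of 0.05, a comparison of the 2 libraries and not of the genotypes. CpGs of a gene are not replicates of a condition, and no p-value was taken over them.

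The sequences that follow show where the largest rise and the largest fall among the 500 bp tiles of the Dlx windows lay, and, for comparison, DNA upstream of the start of 1 gene of each pair. They were read from NCBIM37, run 5′ to 3′ on the strand of the named gene, and have in capitals the CG of each other CpG that was measured.
The first stretch, from the coding part of the last exon of Dlx2, is the one whose methylation was higher in Dnmt1-/- MEFs.
Dlx2 last exon, chr2:71382580-71382879, minus strand: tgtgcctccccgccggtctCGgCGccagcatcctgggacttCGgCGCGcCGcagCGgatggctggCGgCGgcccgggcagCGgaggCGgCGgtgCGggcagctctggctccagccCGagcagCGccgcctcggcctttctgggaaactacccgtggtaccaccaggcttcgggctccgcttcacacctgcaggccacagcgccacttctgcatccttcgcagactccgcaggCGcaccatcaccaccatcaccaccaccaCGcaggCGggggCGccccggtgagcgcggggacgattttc
The second, from the first intron of Dlx4, is the one with the largest fall.
Dlx4 intron, chr11:95003697-95003996, minus strand: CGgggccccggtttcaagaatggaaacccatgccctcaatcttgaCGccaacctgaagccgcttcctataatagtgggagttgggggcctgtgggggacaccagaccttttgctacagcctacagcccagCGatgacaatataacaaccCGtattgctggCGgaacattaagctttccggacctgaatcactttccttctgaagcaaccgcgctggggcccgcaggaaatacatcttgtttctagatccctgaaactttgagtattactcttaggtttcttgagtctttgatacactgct
The remaining stretches were low in both libraries and end 32 bp before the start of Dlx2, 17 bp before that of Dlx3 and 410 bp before that of Dlx6.
Dlx2 before the start, chr2:71384843-71385042, minus strand: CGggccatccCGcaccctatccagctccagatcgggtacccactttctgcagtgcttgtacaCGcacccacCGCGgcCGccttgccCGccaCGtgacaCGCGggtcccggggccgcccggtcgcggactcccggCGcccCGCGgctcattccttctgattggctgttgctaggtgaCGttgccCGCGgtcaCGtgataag
Dlx3 before the start, chr11:94981187-94981386, plus strand: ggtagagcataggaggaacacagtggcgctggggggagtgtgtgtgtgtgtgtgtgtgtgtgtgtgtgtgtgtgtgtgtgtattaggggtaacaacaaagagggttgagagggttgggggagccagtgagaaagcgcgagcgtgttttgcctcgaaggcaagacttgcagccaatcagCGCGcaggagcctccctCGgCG
Dlx6 before the start, chr6:6812725-6812924, plus strand: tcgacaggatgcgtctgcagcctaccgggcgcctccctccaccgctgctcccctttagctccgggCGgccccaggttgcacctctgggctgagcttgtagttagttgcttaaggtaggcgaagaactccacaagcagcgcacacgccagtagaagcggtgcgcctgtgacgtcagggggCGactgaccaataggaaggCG

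The Dlx2 exon stretch holds 34 CG in 300 bases, and its 19 measured other CpGs ranged from 2.56% to 20% in Dnmt1+/+ MEFs and from 12.1% to 69.7% in Dnmt1-/- MEFs, with means of 7.96% and 44.3%. The Dlx4 intron stretch is poorer in CG, with 11 in 300 bases, and its 5 measured CpGs went the other way, from a mean of 39.5% (17.9% to 71.4%) to 4.58% (0% to 12.5%). Before the start of Dlx2, with 24 CG in 200 bases, 17 CpGs averaged 2.31% and 1.56%. The 4 measured CpGs before Dlx3 averaged 5.17% and 3.91%. Before Dlx6, 3 CpGs averaged 3.70% in Dnmt1+/+ MEFs and had no methylated call among 24 calls each in Dnmt1-/- MEFs.

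Across the 492 CpGs, mean methylation was 15.6% in Dnmt1+/+ MEFs and 12.3% in Dnmt1-/- MEFs, a change of -3.32 percentage points [-3.99 to -2.66]. The direction turned over the 246 CpGs in dense sequence (at least 15 CG in the surrounding 200 bp), where the change was 2.12 points. In that sequence only Dlx2 was higher, by 11.6 points over 82 CpGs, and every other Dlx gene was lower, at -4.83 to -0.27 points. With calls pooled over CpGs the change over all 492 was smaller, at -1.17 points. Over all other CpGs of the table the means were 45.0% and 15.1%, a change of -29.9 points. The Dlx windows thus started from a lower level and changed less. In Dnmt1+/+ MEFs, 385 of the 492 CpGs were at 20% or less, 93 lay between 20% and 80%, and 14 were at 80% or more. Fisher's exact test called 54 CpGs (11.0%) lower in Dnmt1-/- MEFs, against 44.2% of all other CpGs of the table, and 37 CpGs (7.52%) higher, against 0.635% of all. Of those 37, 32 lay in the Dlx2 window. Thinning every CpG to 10 calls in both libraries left 7 lower and 3 higher. The share over all CpGs at that depth is not given here, so these counts have no background.

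**Figure D1:**
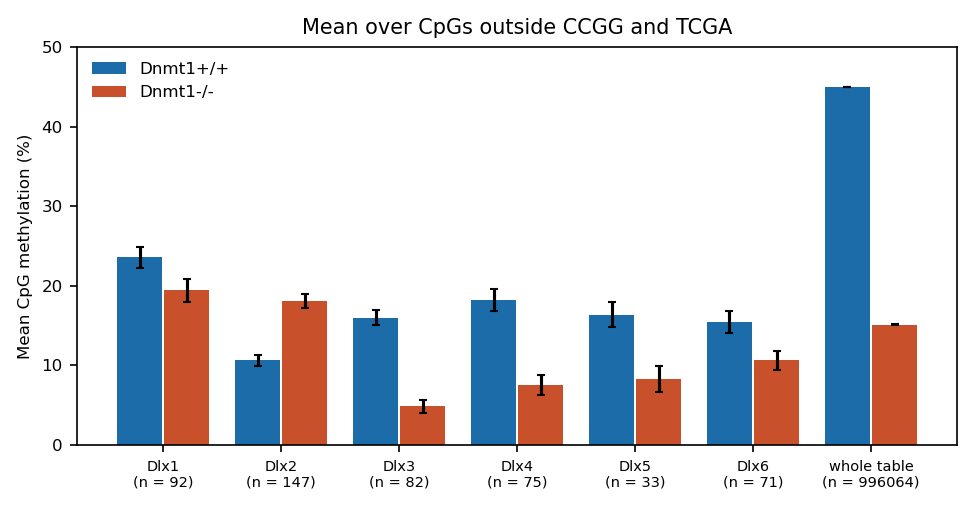
Mean methylation of the other CpGs (percent, y axis) in the window of each Dlx gene and in the whole table (x axis, with the number of CpGs), as bars for Dnmt1+/+ (blue) and Dnmt1-/- (orange) MEFs with 95% counting-error bars, 1 library each. Dlx2 has the higher bar in Dnmt1-/- MEFs (10.6% and 18.1%), while the other 5 genes and the whole table have the higher bar in Dnmt1+/+ MEFs.

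The 3 pairs differed. The Dlx1-Dlx2 pair had the higher mean in Dnmt1-/- MEFs, at 14.5% and 17.5% over 231 CpGs, a change of 2.97 points [1.96 to 3.99], although its median was lower there, at 5.0% and 2.86%. This rise of the mean was carried by 40 CpGs in the last exon of Dlx2, described with that gene, and the other 191 CpGs of the pair averaged 15.5% and 12.9% (-2.56 points), a split made after the values were seen. Dlx3-Dlx4 was lower, at 17.0% and 6.15% over 157 CpGs (-10.9 points [-12.0 to -9.79]). Dlx5-Dlx6 was also lower, at 15.7% and 9.87% over 104 CpGs (-5.88 points [-7.33 to -4.43]). The pair means spanned 14.5% to 17.0% in Dnmt1+/+ MEFs and 6.15% to 17.5% in Dnmt1-/- MEFs. The change of the Dlx1-Dlx2 pair exceeded that of Dlx3-Dlx4 by 13.9 points [12.4 to 15.4] and that of Dlx5-Dlx6 by 8.85 points [7.08 to 10.6], and the change of Dlx3-Dlx4 minus that of Dlx5-Dlx6 was -5.01 points [-6.83 to -3.19]. These intervals exclude 0 on counting error alone. The sizes depended on the CpGs taken: in dense sequence the changes were 7.16, -4.06 and -1.49 points for the 3 pairs in order, and with 10 kb flanks 1.40, -13.7 and -8.19. With 2 kb flanks Dlx3-Dlx4 and Dlx5-Dlx6 came close together, at -6.99 and -6.15 points.

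CpGs called lower numbered 10 (4.33%) in the Dlx1-Dlx2 windows, 34 (21.7%) in those of Dlx3-Dlx4 and 10 (9.62%) in those of Dlx5-Dlx6, each share below the 44.2% of the whole table. CpGs called higher numbered 35 (15.2%), 2 (1.27%) and 0, against 0.635% of the whole table. With all CpGs of the windows included, restriction-site CpGs too, the pair means were 27.0% and 28.3% for Dlx1-Dlx2, 30.8% and 21.2% for Dlx3-Dlx4, and 26.3% and 21.2% for Dlx5-Dlx6, in the same order of change.

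Within a pair the mates did not always move alike. Dlx1 was lower by 4.15 points in Dnmt1-/- MEFs and Dlx2 higher by 7.47 points. The change of Dlx1 minus that of Dlx2 was -11.6 points [-13.9 to -9.36]. The 8 other CpGs shared by these windows enter both changes, and the interval treats the changes as independent. Dlx3 and Dlx4 fell by nearly the same amount, with a difference of -0.46 points [-2.69 to 1.78] that was within counting error. Dlx5 and Dlx6 both fell, with a difference of -3.31 points [-6.26 to -0.36] that was close to counting error. Its direction turned in dense sequence, where Dlx5 changed by -0.27 points and Dlx6 by -1.84.

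**Figure D2:**
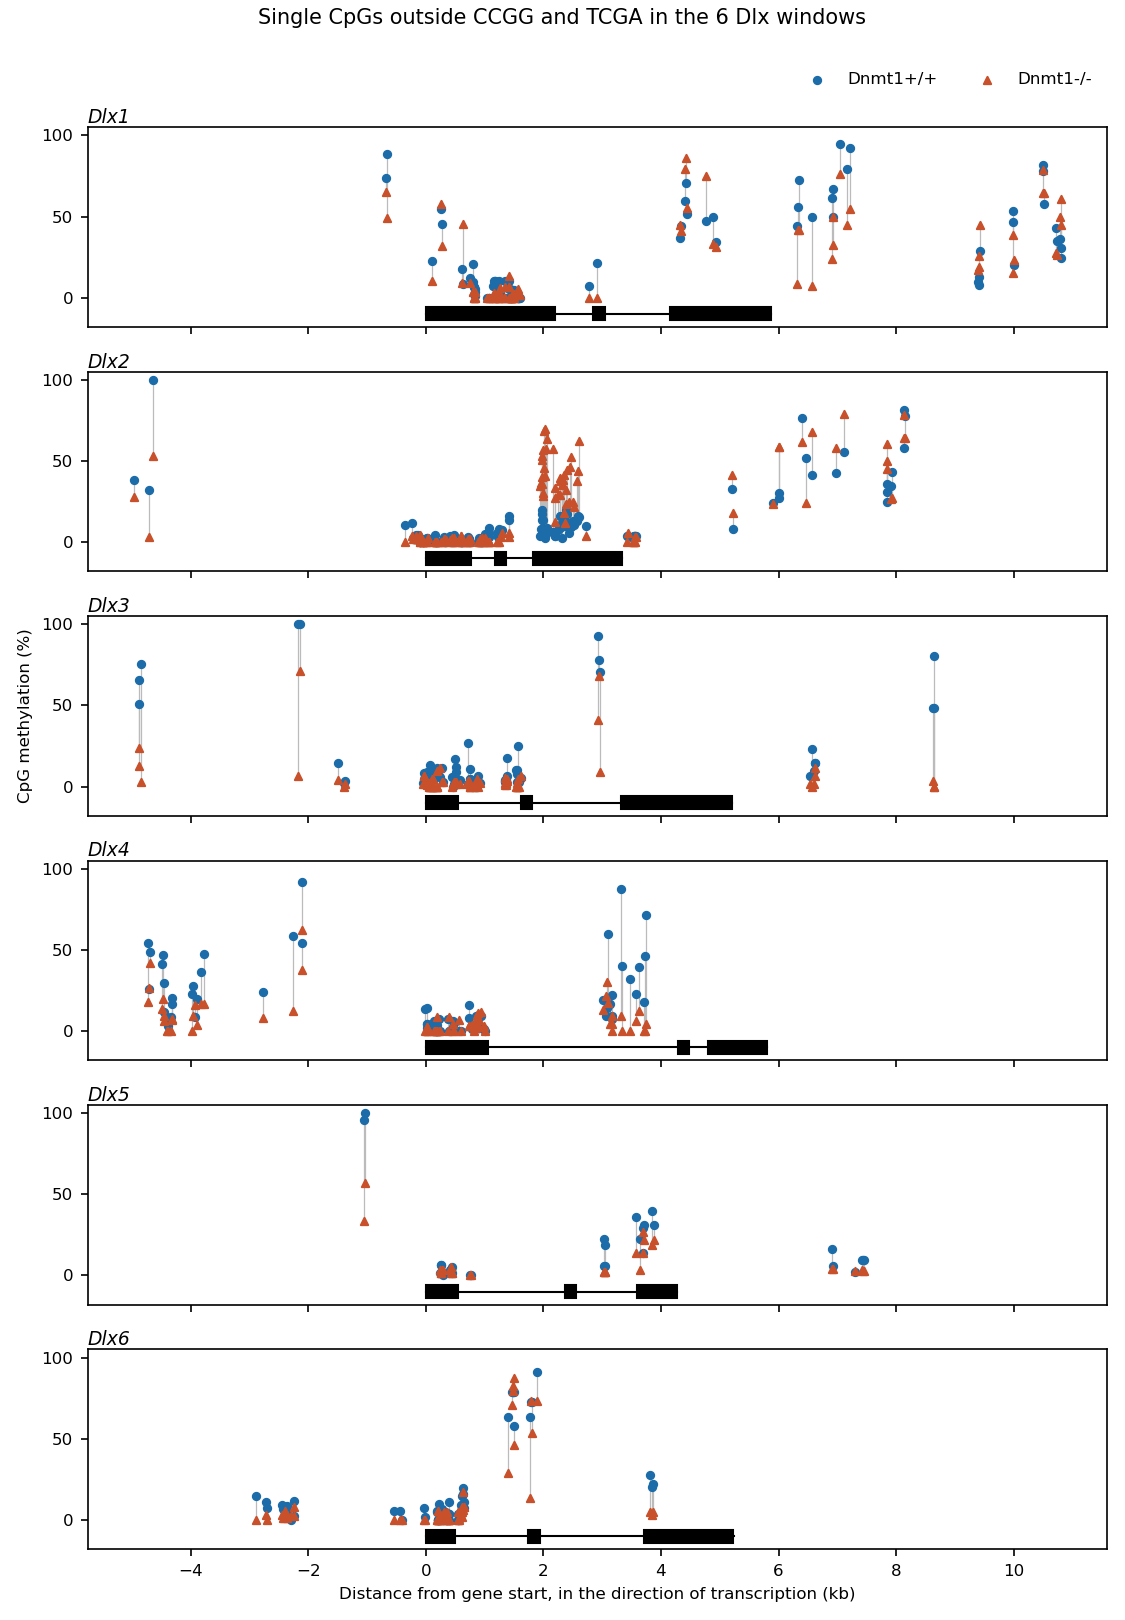
Methylation of each measured other CpG (percent, y axis) against its distance from the gene start in the direction of transcription (kb, x axis) in 6 panels, 1 per Dlx gene, for Dnmt1+/+ (blue circles) and Dnmt1-/- MEFs (orange triangles), joined by a grey line, with exons as black boxes below. Triangles lie above circles over the last exon of Dlx2, where 40 CpGs average 9.89% and 39.3%, and mostly on or below them in the other genes.

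Dlx2, a forebrain and jaw patterning factor whose loss disturbs interneuron formation, was the 1 member whose mean was higher in Dnmt1-/- MEFs, at 10.6% and 18.1% over 147 CpGs (7.47 points [6.36 to 8.58]). With 10 kb flanks its change was 3.91 points. It had 32 CpGs (21.8%) called higher and 2 (1.36%) lower, against 0.635% and 44.2% of the whole table. The rise was not spread over the gene, and without the 40 CpGs of the last exon described next the window averaged 10.9% and 10.2%. Within 1 kb of the start, 65 CpGs averaged 1.46% and 1.02% and none was called in either direction. Exon 1, with 39 CpGs, averaged 1.07% and 0.905%. The first intron averaged 2.22% and 0.540% over 13 CpGs and exon 2 6.34% and 1.71% over 5 CpGs. In the third and last exon, 41 CpGs averaged 9.89% and 38.4%, a change of 28.5 points [26.1 to 31.0], with 30 called higher.

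These 30 calls lay within 652 bp (chr2:71382208-71382859), from 1952 to 2603 bp after the start, and all 40 measured other CpGs between the first and the last of them read higher in Dnmt1-/- MEFs. Their levels ran from 2.44% to 20% in Dnmt1+/+ MEFs (median 9.42%) and from 11.8% to 69.7% in Dnmt1-/- MEFs (median 37.7%). The ranges overlap only between 11.8% and 20%. The stretch was set off by its own calls, so its values are a description. Its coding part, 19 CpGs, averaged 7.96% and 44.3%, and the non-coding part after it, 21 CpGs, 11.6% and 34.7%. Median depth was 75.5 calls in Dnmt1+/+ MEFs and 34 in Dnmt1-/- MEFs, and the 40 CpGs had 18 distinct pairs of depths, and CpGs read on the same fragments share theirs. The 6 restriction-site CpGs in the stretch also read higher in Dnmt1-/- MEFs, at 53.3% and 63.5%. A further CpG of that exon, 2721 bp from the start, was at 10% and 3.64%.

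The CpG with the largest rise of any in the Dlx windows was in this exon at chr2:71382789, 2022 bp from the start. It had 2 methylated calls of 78 in Dnmt1+/+ MEFs (2.56%, Wilson 95% interval 0.706% to 8.88%) and 23 of 33 in Dnmt1-/- MEFs (69.7%, 52.7% to 82.6%), with adjusted p = 1.41e-12 by Fisher's exact test. The 2 Dlx2 calls higher outside the exon lay downstream, 6008 bp and 7842 bp from the start. The largest fall was upstream at chr2:71389457, 4646 bp before the start, where all 31 calls were methylated in Dnmt1+/+ MEFs and 17 of 32 (53.1%) in Dnmt1-/- MEFs (Fisher's exact test, adjusted p = 3.68e-05).

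Runs of consecutive measured CpGs at 20% or less describe the low part of a gene as far as it was measured. A run can cross DNA without a measured CpG, so its length in bp was not all read. In Dnmt1+/+ MEFs the longest such run at Dlx2 held 126 CpGs over 3938 bp, from 358 bp before the start to 3579 bp after it, past the end of the gene. In Dnmt1-/- MEFs it held 77 CpGs over 1775 bp and ended 1416 bp after the start, in the second intron. Its upstream limit was the same CpG in both libraries, 358 bp before the start. The next measured other CpG lay at least 4597 bp before the start, so this limit was set by coverage.

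**Figure D3:**
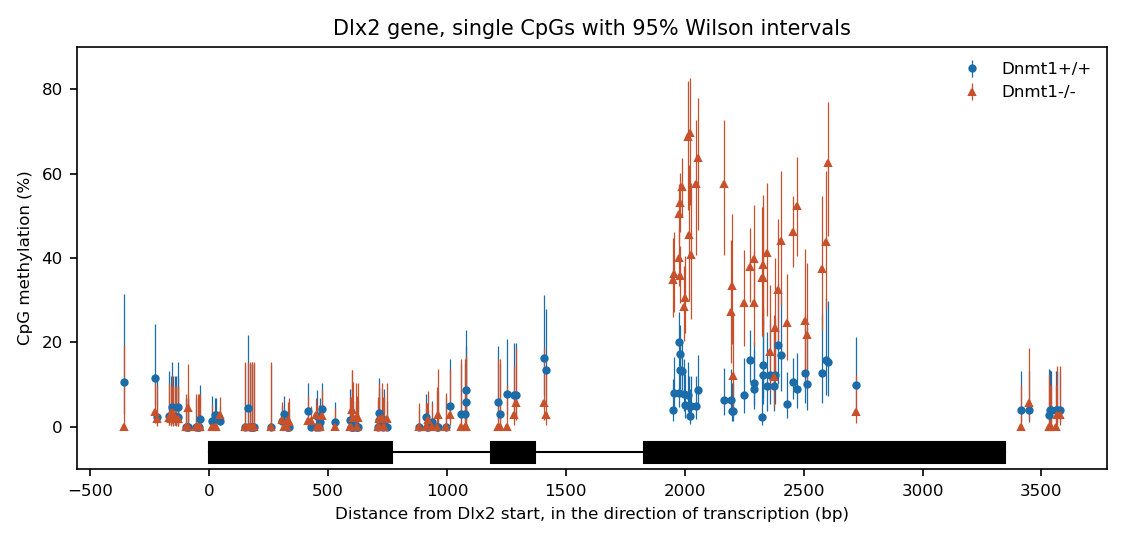
Methylation of the other CpGs of Dlx2 (percent, y axis) from 1 kb before the start to beyond the gene (distance from the start in bp, x axis), with 95% Wilson intervals, for Dnmt1+/+ (blue circles) and Dnmt1-/- MEFs (orange triangles) and with exons as black boxes. Both libraries lie near 0 over exon 1, at 1.07% and 0.905% on average, and in the last exon the triangles rise to as much as 69.7% while the circles are at 20% or less.

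Dlx1, which acts with Dlx2 in interneuron formation, averaged 23.6% and 19.4% over 92 CpGs (-4.15 points [-6.12 to -2.18]). In dense sequence its change was -1.64 points. It had 8 CpGs (8.70%) called lower and 4 (4.35%) higher, against 44.2% and 0.635% of the whole table. Its annotated start was the most methylated of the 6. The 15 CpGs within 1 kb averaged 25.1% and 19.2%, and 2 of them before the start averaged 80.9% and 57.3%. A low run of 48 CpGs began 820 bp after the annotated start, inside the long first exon, and ended 2781 bp after it, in the first intron, at 3.55% and 1.59%. In Dnmt1-/- MEFs it extended to 52 CpGs over 2165 bp and reached exon 2. The annotation places further transcript starts of Dlx1 inside the first exon. Over the 3 exons and 2 introns, exon 1 averaged 6.45% and 4.48% (55 CpGs). Exon 3 averaged 49.3% and 55.8% (8 CpGs), a change of 6.54 points whose interval of -1.90 to 15 includes 0.

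Downstream of Dlx1, towards Dlx2, 25 CpGs averaged 49.2% and 39.2%, with 4 called lower and 4 higher. The called CpG with the largest fall was there, at chr2:71372732, with 8 of 16 calls methylated and then 1 of 14 (50% and 7.14%, Fisher's exact test, adjusted p = 0.0394). The called CpG with the largest rise, chr2:71376969, is 1 of the CpGs shared with the Dlx2 window and went from 16 of 52 calls (30.8%) to 23 of 38 (60.5%), with adjusted p = 0.0151 by Fisher's exact test. The other 3 called higher lay next to each other, 9404 to 9420 bp from the start of Dlx1, with rises of 11.0 to 16.3 points.

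Dlx3, a regulator of placental and epidermal differentiation, averaged 16.0% and 4.85% over 82 CpGs (-11.1 points [-12.3 to -9.89]). In dense sequence its change was -4.83 points. It had 21 CpGs (25.6%) called lower, against 44.2% of the whole table, and none higher. It was the lowest of the 6 in Dnmt1-/- MEFs. Upstream, 8 CpGs averaged 51.6% and 15.3%, and downstream, 8 CpGs averaged 30.8% and 3.10%. Around its start, 46 CpGs averaged 6.47% and 2.04%, with 8 called lower. The first intron was low, at 5.73% and 1.82% (31 CpGs), and the second intron, with 3 CpGs, high at 80.2% and 39.4%. The last exons of Dlx3 and Dlx4 held no measured other CpG, so the part of the gene that rose in Dlx2 could not be compared there.

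The strongest single change in any Dlx window was at chr11:94979235, 2168 bp before the Dlx3 start. All 86 calls were methylated there in Dnmt1+/+ MEFs (100%, Wilson 95% interval from 95.7%) and 6 of 90 in Dnmt1-/- MEFs (6.67%, 3.09% to 13.8%), with adjusted p = 6.44e-41 by Fisher's exact test. The next measured other CpG, 2145 bp before the start, was also at 100% in Dnmt1+/+ MEFs but at 71.1% in Dnmt1-/- MEFs (adjusted p = 0.000368 by Fisher's exact test, 43 and 45 calls). Both CpGs started fully methylated, and their levels in Dnmt1-/- MEFs lay far apart. The low run at the start lengthened from 36 CpGs over 2210 bp to 66 CpGs over 3113 bp.

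Dlx4, the mate of Dlx3, averaged 18.2% and 7.58% over 75 CpGs (-10.7 points [-12.5 to -8.78]). Its change was -3.06 points in dense sequence and -6.17 with calls pooled over CpGs. It had 13 CpGs (17.3%) called lower and 2 (2.67%) higher, against 44.2% and 0.635% of the whole table. Its start was low in both libraries, at 4.07% and 2.86% over 36 CpGs. Most of the difference lay in the first intron, where 16 CpGs averaged 32.2% and 8.30% with 7 called lower, and upstream, where 22 CpGs averaged 32.1% and 15.1% with 5 called lower. At chr11:95004254, in that intron, 21 of 24 calls were methylated in Dnmt1+/+ MEFs (87.5%) and 2 of 22 (9.09%) in Dnmt1-/- MEFs (Fisher's exact test, adjusted p = 8.88e-07). The 2 CpGs called higher were neighbours in exon 1, 877 and 881 bp after the start, and the larger rise was from 2 of 106 calls (1.89%) to 12 of 106 (11.3%), with adjusted p = 0.0253 by Fisher's exact test. Between the windows of Dlx3 and Dlx4, 6 CpGs in 5159 bp averaged 77.0% and 29.4%, and 5 of them were called lower.

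Dlx5, which acts in craniofacial and bone development, had 33 CpGs, the fewest of the 6, and averaged 16.4% and 8.25% (-8.14 points [-10.4 to -5.83]). In dense sequence its change was -0.27 points. It had 4 CpGs (12.1%) called lower, against 44.2% of the whole table, and none higher. The 14 CpGs within 1 kb of its start, all after it, averaged 2.58% and 2.35%. Its last exon averaged 27.8% and 17.7% over 6 CpGs and its second intron 17.8% and 4.62% over 5 CpGs. Just over 1 kb before the start, 2 CpGs averaged 98% and 45.2%, and the 1 with the larger fall, chr6:6833137, went from 24 of 25 calls (96%) to 7 of 21 (33.3%), with adjusted p = 3.07e-05 by Fisher's exact test.

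Dlx6, linked with Dlx5 and sharing its roles in jaw and limb, averaged 15.5% and 10.6% over 71 CpGs (-4.83 points [-6.66 to -3.00]). In dense sequence its change was -1.84 points. It had 6 CpGs (8.45%) called lower, against 44.2% of the whole table, and none higher. Its low run was the same 58 CpGs over 3534 bp in both libraries, from 2881 bp before the start to 652 bp after it, at 5.0% and 2.30%. No CpG between 2203 and 548 bp before the start was measured, so part of that length was not read. Behind the low run lay CpGs that kept most of their methylation. In the first intron, 6 CpGs from 1392 to 1499 bp after the start averaged 72.8% and 65.9%, a change of -6.96 points [-17.9 to 3.95], and none was called. Exon 2, with 4 CpGs, averaged 75% and 53.3%. The CpG with the largest called fall of Dlx6, chr6:6815106, was in that exon and went from 7 of 11 calls (63.6%) to 2 of 15 (13.3%), with adjusted p = 0.0323 by Fisher's exact test. At 11 to 24 calls, differences in these CpGs were hard to detect. Exon 3 averaged 23.3% and 4.0% over 3 CpGs.

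Tiles of 500 bp with at least 5 CpGs divided the windows further. Of the 28 such tiles, 18 were at 20% or less in both libraries and 11 were under 5% in both. One tile was higher in Dnmt1-/- MEFs by at least 25 points, where 0.397% of all such tiles were, and 3 were lower by as much, where 38.7% of all were. The risen tile, 1811 to 2310 bp after the Dlx2 start, went from 8.43% to 42.5% over 23 CpGs (34.1 points [31.2 to 37.0]), with 22 called higher. The next rise was the adjoining tile, at 11.8% and 33.2% over 18 CpGs with 8 called higher. The third was in exon 3 of Dlx1, which Dlx1as, an RNA gene on the other strand, overlaps, at 54.6% and 67.4% over 5 CpGs (12.8 points [1.84 to 23.8]) with none called.

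The 3 falls of at least 25 points were 2 adjoining tiles in the first intron of Dlx4, at 39.5% and 4.58% (5 CpGs) and at 34.3% and 5.58% (8 CpGs), and a tile downstream of Dlx1 at 73.9% and 46.9% (6 CpGs). The tiles with the highest level in Dnmt1-/- MEFs were the Dlx1 exon 3 tile at 67.4%, the tile of the first intron of Dlx6 at 65.9%, and the tile shared by the Dlx1 and Dlx2 windows at 52.0% (48.2% in Dnmt1+/+ MEFs, 8 CpGs). None of the 3 lay at a gene start.

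CpGs were also grouped by their level in Dnmt1+/+ MEFs, which sets the direction in which they can move. Among the 385 Dlx CpGs at 20% or less, 34 (8.83%) were called higher, against 1.05% of all CpGs of the table in that class, and 16 (4.16%) were called lower, against 2.83% of all. Of the 34 called higher, 30 were in Dlx2, among its 127 such CpGs. Outside Dlx2, the low CpGs averaged 4.80% and 4.08% at Dlx1 (56 CpGs), 6.22% and 2.24% at Dlx3 (68), 6.21% and 4.18% at Dlx4 (51), 5.54% and 3.04% at Dlx5 (24), and 5.26% and 2.31% at Dlx6 (59). Of the 93 Dlx CpGs between 20% and 80%, 28 (30.1%) were called lower, against 67.4% of all in that class, and 3 (3.23%) higher, against 0.931%. The mean of these 93 went from 46.1% to 30.8%, and that of the whole class from 55.0% to 14.6%. It went from 46.5% to 42.0% at Dlx1-Dlx2, from 43.3% to 12.8% at Dlx3-Dlx4 and from 50.4% to 36.3% at Dlx5-Dlx6. Of the 14 Dlx CpGs at 80% or more, 10 (71.4%) were called lower, against 88.2% of all in that class. Their mean went from 92.5% to 47.6%, and that of the whole class from 94.6% to 32.0%. By pair, the level left in Dnmt1-/- MEFs was 62.4% for the 5 CpGs of Dlx1-Dlx2, 31.7% for the 6 of Dlx3-Dlx4 and 54.6% for the 3 of Dlx5-Dlx6.

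Windows of the same kind were taken for 13543 protein-coding genes with at least 20 other CpGs. Their median change was -17.0 points (quartiles -28.8 and -9.01), and 208 (1.54%) were above 0. Ordered from the highest change, Dlx2 was at place 61, Dlx1 at 1376, Dlx6 at 1641, Dlx5 at 2988, Dlx4 at 4092 and Dlx3 at 4286. All 6 members were in the upper part of that order, and all were below the median level of genes in Dnmt1+/+ MEFs, 28.4%. A rise of at least 10 points was seen in 0.325% of the genes and in no Dlx gene, and a fall of at least 10 points in 71.8% of the genes and in 2 of the 6, Dlx3 and Dlx4. In Dnmt1-/- MEFs, Dlx1, Dlx2 and Dlx6 were above the median of genes, 9.78%, and the other 3 below it.

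**Figure D4:**
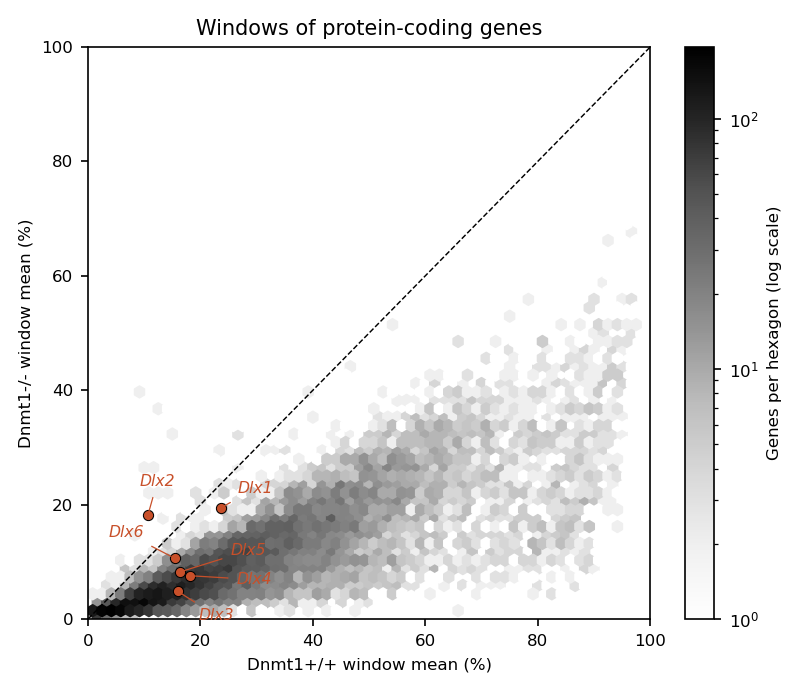
Mean methylation of the other CpGs in the windows of 13543 protein-coding genes (hexagons shaded by number of genes, log scale) in Dnmt1+/+ MEFs (percent, x axis) and Dnmt1-/- MEFs (percent, y axis), with the 6 Dlx genes as orange points and equal levels as a dashed line. Dlx2 lies above the line at 10.6% and 18.1%, Dlx1 just below it, and Dlx3 deepest below it among the 6.

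The genes most like each member were sought over 4 values, the means within 1 kb of the start and in the rest of the window in both libraries, among 7899 genes with enough CpGs. For Dlx2, at 1.46% and 1.02% near the start and 17.9% and 31.7% in the rest, the nearest were Isl1 (5.02% and 1.56%, 19.0% and 35.7%, the latter over 10 CpGs), Ildr2 (5.95% and 1.19%, 19.4% and 28.0%) and Fzd1 (1.30% and 0.849%, 20% and 24.5%), at distances of 5.53, 5.98 and 7.46 points. Dlx3 had closer matches in Hdac10, Dnttip1 and Lmo1, at distances of 1.33 to 1.75 points, and Dlx4 in Bcorl1, 1110003E01Rik and Gcsh at 0.92 to 1.26. For Dlx5 they were Tgif2, Mprip and Tbx18 at 1.22 to 1.76, and for Dlx6 Igdcc3, Gdnf and Atf3 at 3.0 to 3.11. Dlx1 had the most distant ones, Dcxr, Pnmal2 and 9230102O04Rik, at 8.04 to 11.2. With 2 libraries such likeness is a description of levels only.

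A list of 33 genes that act before, with or after the Dlx genes was read in the same windows, and 30 had at least 20 CpGs. None was higher by 10 points, 12 were lower by as much and 18 lay within 10 points, with a median change of -6.12 points, against -17.0 for all genes. Among all genes 71.8% fell by at least 10 points, so the falls named here are no more than that background. Among regulators of Dlx genes, 4 of 14 were lower, the endothelin receptor gene Ednra (41.0% and 7.70%), the signalling genes Bmp4 (36.5% and 21.9%) and Fgf8 (21.6% and 9.91%), and Trp63 (96.8% and 49.4%). Among targets and genes of the same programmes, 8 of 14 were lower. They include the 3 genes for making and packaging GABA, Gad1 (21.9% and 4.06%), Gad2 (16.3% and 4.49%) and Slc32a1 (17.3% and 2.19%), the bone regulators Runx2 (29.1% and 13.9%) and Sp7 (45.9% and 29.0%), and Lhx8, Gbx1 and Meis2, with falls of 14.2 to 19.6 points.

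Nearest to Dlx2 in direction was Msx1, a homeobox gene of jaw and tooth development, at 19.2% and 27.6% (8.40 points, 23 CpGs called higher and 8 lower of 121). Hand1 (33.5% and 36.3%), Gsc (15.4% and 16.4%) and Isl1 (7.61% and 7.89%) were the remaining listed genes with a change above 0. The intervals of Gsc [-0.74 to 2.66] and Isl1 [-1.91 to 2.47] included 0. Hand1 had a change of 2.82 points [0.51 to 5.13] but more CpGs called lower (21) than higher (18). The noncoding genes at the loci followed the windows they overlap, with Dlx1as at 27.8% and 23.3% and Dlx6os1 at 19.6% and 11.5%. Edn1 and Maged1 had too few CpGs, and no gene was listed under the name Dlx6as in the annotation used here.

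Protein-coding neighbours beyond the pairs were all lower in Dnmt1-/- MEFs. Metap1d, 2.92 kb before Dlx1 and sharing 57 CpGs with its window, averaged 35.7% and 19.8%, and Gm1631, on the Dlx2 side, 91.2% and 34.6% over 10 CpGs. Itga3 (17.4% and 5.68%) and Tac4 (23.5% and 9.37%) flank Dlx3-Dlx4, and Shfm1 (9.29% and 2.04%) and Acn9 (21.1% and 3.84%) flank Dlx5-Dlx6.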

How the data were processed

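Extended RRBS of 2 MEF lines was performed by a service provider, who also did quality control and mapping to mm9. Bismark is named in the submitters' processing notes, with a version and a conversion rate not given in the sources used here. The deposited depth columns are counts of methylation calls per CpG, and the authors kept CpGs with at least 10 calls in both libraries. The deposited percent is methylated calls as a share of those calls. Percent times depth gave whole calls (tolerance 1e-06) at 100% of CpGs. The table holds 74636195 calls for Dnmt1+/+ and 78401157 for Dnmt1-/-. All positions lie on a CG of NCBIM37.

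Samples were grouped by the genotype in their labels. Genes, exons and transcripts came from GENCODE vM1 on the same build, and the start is the outer end of the annotated gene. The level of a place is the mean over its CpGs, each counted once, and its interval is a normal 95% interval on the binomial error of the CpGs, with 1 methylated and 1 unmethylated call added in the variance. Fisher's exact test was also run on simulated calls, with an outcome not given here. Dense sequence has at least 15 CG in the 200 bp around a CpG. The genes and lists were chosen with earlier results of these data known. The items named are, per gene, the called CpGs with the largest rise and fall, the 3 tiles with the largest rise, fall and Dnmt1-/- level, the 3 most alike genes, a list of related genes, and the nearest protein-coding neighbours. Those outside this rule, the 652 bp stretch of Dlx2 among them, were chosen after their values were seen. Alternatives are given in the closing part. No replicate-based test was possible. Intervals and limits cover counting error only. At the median of 29 and 30 calls over all CpGs, no methylated call allows a level of up to 10.3% and 10.0%. Plots were drawn with matplotlib 3.10.9, sequences read with pysam 0.24.0, and tables and tests run in Python 3.11.15 with scipy 1.17.1, pandas 2.3.3, numba 0.67.0 and numpy 2.4.6.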

Additional observations from a re-analysis of the deposited data

How the results depend on the processing

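No paired analysis was possible because there is 1 library for each genotype. For the same reason no replicate could be left out. The mean change over all Dlx CpGs turned in dense sequence alone, where the 492 CpGs become 246 and the change 2.12 in place of -3.32 points. Dlx2 was the only gene with a rise in that setting, and every other Dlx gene was lower. Without the 40 CpGs of the Dlx2 last exon, a setting added after seeing the data, the mean change was -6.22 over all, and turned to -2.56 for Dlx1-Dlx2 and -0.72 for Dlx2. No other mean change of a gene or pair turned under the settings tried, and the sizes were as follows. In dense sequence the change was 7.16 for Dlx1-Dlx2, -4.06 for Dlx3-Dlx4 and -1.49 for Dlx5-Dlx6, and by gene -1.64 for Dlx1, 11.6 for Dlx2, -4.83 for Dlx3, -3.06 for Dlx4, -0.27 for Dlx5 and -1.84 for Dlx6. With calls pooled over CpGs it was -1.17 over all, 5.15 for Dlx1-Dlx2, -7.17 for Dlx3-Dlx4, 9.69 for Dlx2, -7.76 for Dlx3 and -6.17 for Dlx4. With 2 kb flanks it was -1.81 over all, -6.99 for Dlx3-Dlx4, -6.23 for Dlx3 and -8.04 for Dlx4. With 10 kb flanks it was -5.52 over all, 1.40 for Dlx1-Dlx2, -13.7 for Dlx3-Dlx4, -8.19 for Dlx5-Dlx6, 3.91 for Dlx2, -15.2 for Dlx3, -14.4 for Dlx4 and -12.6 for Dlx5. With restriction-site CpGs included it was 1.30 for Dlx1-Dlx2, -9.57 for Dlx3-Dlx4, 5.41 for Dlx2 and -8.63 for Dlx4. With at least 20 calls it was 4.38 for Dlx1-Dlx2, and without the deepest CpGs -13.0 for Dlx3. Thinning to 10 calls left 7 CpGs lower and 3 higher of 54 and 37, since fewer calls are tested. A difference of at least 25 points left 29 lower. Shares over all CpGs at these settings are not given here. Tiles of 1 kb gave a largest rise of 28.5 in place of 34.1 points. The cause of the other changes was not tested. Of the 99 values of these results under other settings, 59 stayed within counting error or, for counts, within 1.5 times.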
